A study of Rattus norvegicus with 18 samples.

Results

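rno-miR-191a-5p and rno-miR-28-5p, written miR-191a-5p and miR-28-5p from here, are a pair of rat liver microRNAs (miRNAs) taken, by row name, from a table of 401 mature miRNAs. They were chosen because earlier results on these libraries showed them moving in opposite directions in the liver of obese rats given colesevelam. Their levels with colesevelam are therefore given as a description, with an adjusted p only to say where a call is lost, and tests are given only for vehicle against lean and for other miRNAs. Both members passed the filter on low counts, as did 112 of the 401 rows. miR-28-5p also passed it when the lean libraries, where its counts were highest, were left out of the fit.

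Small RNA was sequenced from liver in 3 groups of 6 libraries, all from rats aged 8 weeks. The groups were lean rats, vehicle-treated obese ZDF rats and obese ZDF rats on colesevelam, which holds bile acids back in the intestine. All 18 labels, those of the lean rats included, give the strain ZDF-Leprfa/Crl, whose fa allele disables the leptin receptor, so that the lean rats are known by group name and phenotype label alone. The sources used here give neither sex, dose nor length of treatment, and the lean rats have no agent in their labels. Since the labels do not state that the libraries are from different animals, the spread behind each p-value is that of libraries and may be partly technical. Some library names also share a number, whose meaning is not stated. Lean libraries held 110353 to 881450 miRNA counts, vehicle libraries 37909 to 147314 and colesevelam libraries 32936 to 122880. Lean values are therefore the most precise, and depth cannot be told apart from the lean group in comparisons with it. miR-122-5p, the defining miRNA of hepatocytes, was abundant in all groups, with a mean of 45208 CPM in lean, 38368 CPM in vehicle and 49019 CPM in colesevelam libraries. CPM are counts divided by library totals that were scaled by TMM, which assumes that most miRNAs do not change between libraries.

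A miRNA is cut from a hairpin precursor whose left (5p) and right (3p) arms can both yield a mature strand. The mature strand guides an Argonaute protein to messenger RNAs, mainly through its seed, and lowers their output. miR-191 is found in many cell types, lies close to miR-425 and is often used as a reference in miRNA assays. miR-28 lies within Lpp, the gene of a protein of cell adhesion sites, is known from lymphocytes as well as from solid tissues, and its arms have different targets.

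The sequences are shown because the members share no seed, and because the other arm of miR-28 and its relatives bear on the results. They are RefSeq entries of GRCr8, with the seed (bases 2 to 8) in capitals.
miR-191a-5p: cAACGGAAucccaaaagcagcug
miR-28-5p: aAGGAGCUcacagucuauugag
miR-28-3p: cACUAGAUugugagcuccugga
miR-708-5p: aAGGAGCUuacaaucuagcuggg
No other row of the table carried the seed of either member. Among the 724 RefSeq mature entries, miR-28-5p shared its seed with miR-708-5p, and miR-191a-5p with none. The GC content was 52.2% for miR-191a-5p and 45.5% for miR-28-5p.

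In the deposited table miR-191a-5p lies at chr8:116698881-116698903 on the plus strand, 430 bases before miR-425-5p, and miR-28-5p at chr11:81345188-81345209 on the plus strand, 18 bases before miR-28-3p. The genome build behind these positions is not stated. In GRCr8 Mir191 (chr8:118142627-118142717) and Mir425 lie within the bounds of Dalrd3, all on the plus strand. Mir28 (chr11:89480252-89480337) lies within those of Lpp and is on the minus strand in GRCr8, unlike in the deposited table. Whether these are exonic or intronic was not examined. The Mir191 precursor is printed with its 5p and 3p arms in capitals, since nearly all its counts came from the left one.
Mir191 precursor: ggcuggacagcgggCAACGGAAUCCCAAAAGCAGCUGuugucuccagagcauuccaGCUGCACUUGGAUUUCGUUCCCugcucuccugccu

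miR-191a-5p was an abundant liver miRNA, rank 18 of 401 by counts, and was highest in colesevelam libraries. In lean libraries it ranged from 7281 to 10035 CPM, with a median of 9168 CPM. Vehicle libraries ranged from 7955 to 12643 CPM, with a median of 8768 CPM, so that lean and vehicle libraries overlapped widely. Colesevelam libraries ranged from 11778 to 24429 CPM, with a median of 14399 CPM. All 6 lay above every lean library, and 5 of 6 lay above every vehicle library. The group means were 8932 ± 1067, 9573 ± 1928 and 16226 ± 4767 CPM (mean ± SD, n = 6 each) in lean, vehicle and colesevelam. The highest value was in colesevelam 6, and the lowest colesevelam library, colesevelam 3, lay below vehicle 1. In CPM of unscaled totals colesevelam 5 lay below vehicle 1 too, at 11531.5 against 12877.5.

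miR-28-5p was scarcer, rank 65 of 401 by counts, and was ordered the other way, lowest in colesevelam libraries. It ranged from 383 to 833 CPM in lean libraries (median 505 CPM), from 339 to 498 CPM in vehicle libraries (median 446 CPM) and from 133 to 321 CPM in colesevelam libraries (median 247 CPM). In TMM-scaled CPM every colesevelam library lay below every vehicle and every lean library, while vehicle and lean libraries overlapped. The gap to vehicle was narrow, from 321 CPM in colesevelam 2 (18 counts) to 339 CPM in vehicle 4 (17 counts). In CPM of unscaled totals their order reversed, at 324 and 307, so the separation from vehicle depends on the scaling. The means were 565 ± 158, 423 ± 63.5 and 234 ± 65.0 CPM (mean ± SD, n = 6 each) in lean, vehicle and colesevelam. By mean CPM it held rank 66 of 401 among lean, 73 among vehicle and 89 among colesevelam libraries, while miR-191a-5p moved from 19 and 18 to 14.

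**Figure D1:**
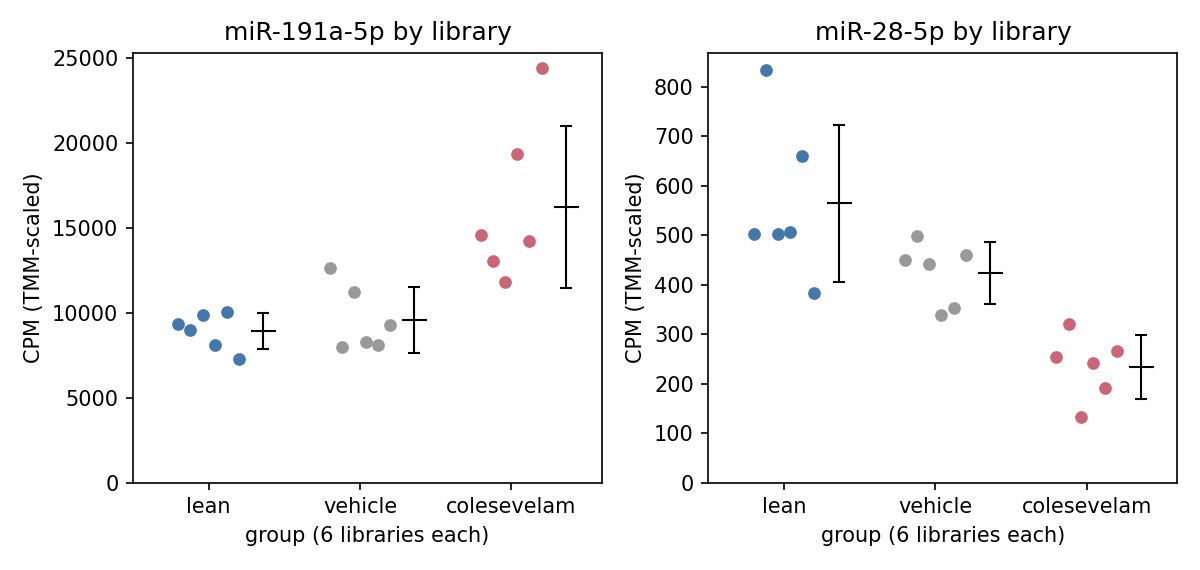
CPM of miR-191a-5p (left) and miR-28-5p (right), each axis from 0, for the 6 libraries of each group (points), with the mean ± SD beside them (bar). Colesevelam libraries reach 24429 CPM for miR-191a-5p and stay at or below 321 CPM for miR-28-5p. There they lie under every vehicle library, which does not hold with unscaled totals.

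Few molecules lay behind the low values of miR-28-5p. Its raw counts were 58 to 634 in lean, 17 to 54 in vehicle and 9 to 19 in colesevelam libraries, and summed to 1187, 170 and 81. In colesevelam 3, the lowest library, 12 counts gave 138 CPM of the unscaled total, with an exact 95% Clopper-Pearson interval of 71.3 to 241. In colesevelam libraries the SD of log2 CPM between libraries was 0.44, close to the 0.41 that counting alone gives at this depth. For vehicle libraries the SD was 0.22 and that of counting 0.30. The order of the obese libraries among themselves is therefore not resolved for miR-28-5p. miR-191a-5p had 383 or more counts in every library, and its SD of 0.39 in colesevelam libraries was well above the 0.05 of counting. Intervals and these counting SDs cover counting error only, since no molecular identifiers are named in the protocols.

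Against vehicle, the log2 fold change with colesevelam was 0.76 ± 0.19 (SE) for miR-191a-5p and −0.87 ± 0.26 for miR-28-5p, or 1.70-fold higher and 1.83-fold lower. These changes rank 9 from the highest and 8 from the lowest of the 112 miRNAs tested. Both members are among the miRNAs called, as their choice requires, where 10.7% of miRNAs were called, 7.14% higher and 3.57% lower (edgeR's quasi-likelihood test, Benjamini-Hochberg adjusted p under 0.05). These calls depend on the fit: that of miR-28-5p was lost in 6 of 10 other settings and when any 1 of 7 libraries was left out (colesevelam 3, 4, 5 or 6, or vehicle 2, 3 or 6), with edgeR adjusted p up to 0.103 without a library. That of miR-191a-5p was lost in 3 of 10 other settings and held without any 1 of the 12 libraries. In TMM-scaled CPM the groups did not overlap in 1.79% of miRNAs that were lower, miR-28-5p among them. In CPM of unscaled totals the groups did overlap for miR-28-5p. Against lean, the log2 fold change with colesevelam was 0.86 ± 0.19 for miR-191a-5p and −1.30 ± 0.26 for miR-28-5p. Both are again among the calls, which took in 21.4% of miRNAs there, and neither overlapped with lean, as 5.36% of miRNAs did not when higher and 2.68% when lower. The comparisons with vehicle and with lean share the colesevelam libraries.

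Vehicle against lean was not itself used to choose the members, and neither was called. It shares its vehicle libraries with the comparison that chose them, so its tests are not independent of that choice. The log2 fold change of miR-191a-5p was 0.10 ± 0.19, with a 95% interval of −0.30 to 0.50 (edgeR adjusted p = 0.858). That of miR-28-5p was −0.43 ± 0.24, with an interval of −0.93 to 0.08 (edgeR adjusted p = 0.382), and 2 of 6 vehicle libraries lay below every lean library. Of all miRNAs tested 6.25% were called in this comparison. At an unadjusted p under 0.05, 0 of the 2 members passed in edgeR, and DESeq2 called 0. For miR-28-5p the interval allows a level in vehicle liver lower by up to 0.93 on the log2 scale.

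Because both members were counted in the same library, their ratio does not depend on how libraries are scaled to each other. miR-191a-5p exceeded miR-28-5p 10.8- to 19.6-fold in lean libraries (median 17.3), 16.0- to 28.2-fold in vehicle libraries (median 23.7) and 40.6- to 92.1-fold in colesevelam libraries (median 77.4). On the log2 scale the ratio averaged 4.02 ± 0.32 across lean, 4.49 ± 0.29 across vehicle and 6.12 ± 0.45 across colesevelam libraries (mean ± SD, n = 6 each). No colesevelam library reached down to the highest ratio of another group, which was 28.2 in vehicle 1. The pair was chosen for opposite changes with colesevelam, so this separation is a description and was not tested. How many other pairs of miRNAs separate in this way was not examined. The difference of the means was 1.63 against vehicle, 2.10 against lean and 0.47 between vehicle and lean. The smallest colesevelam ratio was that of colesevelam 2, and the smallest of all was that of lean 2, the deepest library.

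**Figure D2:**
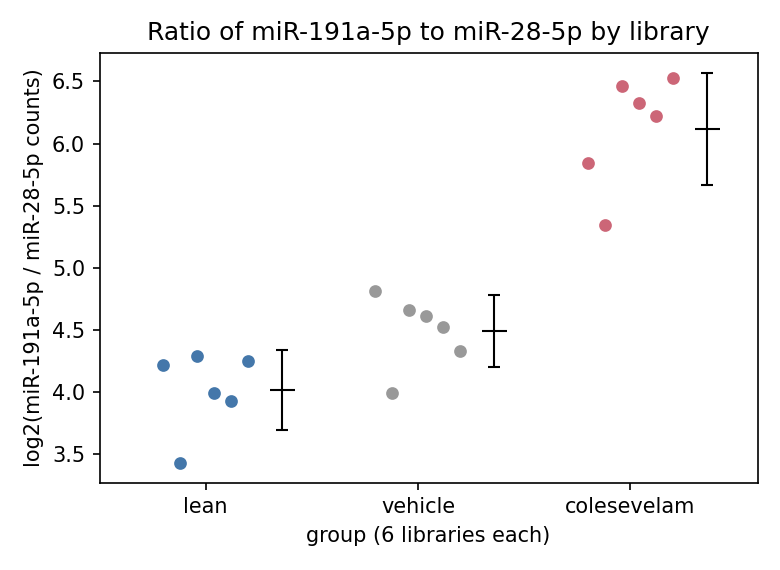
Log2 ratio of miR-191a-5p to miR-28-5p counts for each library (points) by group, with mean ± SD (bar, n = 6). Colesevelam libraries lie between 5.34 and 6.53, above the vehicle libraries at 4.00 to 4.82 and the lean libraries at 3.43 to 4.30. The pair was chosen for opposite changes with colesevelam, so this separation is a description.

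Within groups no relation between the members was detectable with 6 libraries each. Pearson's r of their log2 CPM was 0.55 in lean (exact permutation p = 0.231, Spearman's rho 0.31, exact permutation p = 0.564), 0.35 in vehicle (exact permutation p = 0.511, rho −0.09, exact permutation p = 0.919) and 0.42 in colesevelam libraries (exact permutation p = 0.406, rho 0.37, exact permutation p = 0.497). Adjusted over the 3 groups, the exact permutation p was 0.511 for each r, and 0.846, 0.919 and 0.846 for the rho of lean, vehicle and colesevelam. Without the 2 libraries farthest from the median of miR-191a-5p, r was −0.47, 0.22 and 0.52, so the sign in lean libraries turned. With CPM of unscaled totals it did not turn: lean r was 0.48, and 0.28 without the 2 libraries farthest from the median.

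The other miRNAs of the miR-191 locus gave few counts. miR-425-5p, the neighbour of miR-191a-5p, was the only one of the 3 in the table with enough counts to test. With TMM and all 18 libraries it was not called in any comparison. It was at 86.6 to 140 CPM in lean libraries (median 107), 83.1 to 175 CPM in vehicle libraries (median 121) and 56.8 to 348 CPM in colesevelam libraries (median 165), all overlapping. Its log2 fold change was 0.37 ± 0.32 for colesevelam against vehicle (edgeR adjusted p = 0.583, interval −0.29 to 1.04), 0.54 ± 0.29 against lean (0.176) and 0.17 ± 0.30 between vehicle and lean (0.851), with 0 of these at an unadjusted p under 0.05. DESeq2 called 0 of these, but gave no adjusted p for colesevelam against vehicle. The value against vehicle ran from 0.17 without colesevelam 4 to 0.62 without colesevelam 6, with no call. With 3 to 19 counts in each obese library miR-425-5p was poorly measured. miR-191a-3p, the right arm of the precursor shown above, summed to 37, 4 and 5 counts in lean, vehicle and colesevelam libraries against 16350, 3789 and 5737 of miR-191a-5p. miR-425-3p summed to 15, 7 and 9 counts, and miR-191b was not analysed here.

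miR-28-3p, the other arm of the miR-28 hairpin, was not called in any comparison with TMM. It was the major arm, at 2688 to 6036 CPM in lean libraries (median 5575), 3939 to 7232 CPM in vehicle libraries (median 5142) and 4951 to 9071 CPM in colesevelam libraries (median 6590). Its groups overlapped, and its mean was highest where that of miR-28-5p was lowest. The log2 fold change of miR-28-3p was 0.35 ± 0.22 for colesevelam against vehicle (edgeR adjusted p = 0.405, interval −0.11 to 0.80), 0.40 ± 0.22 for colesevelam against lean (0.179) and 0.05 ± 0.22 for vehicle against lean (0.976).

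Counts of miR-28-5p came to 8.55% to 15.4% of those of miR-28-3p in lean libraries (median 10.1%), 6.37% to 9.82% in vehicle libraries (median 8.22%) and 2.80% to 6.50% in colesevelam libraries (median 3.17%), with 0.5 added to each count. Colesevelam 2 was the only colesevelam library above the lowest vehicle library, vehicle 1. On the log2 scale the arm ratio was 2.29-fold lower with colesevelam than with vehicle, a difference of −1.20, which includes the change that chose miR-28-5p and is given with no test. Among the 13 precursors with both arms tested this was the largest shift in size for that comparison, ahead of miR-122 at 0.97 and miR-148a at −0.78. By the same ranking miR-28 held rank 2 for colesevelam against lean, behind miR-21, and rank 9 for vehicle against lean. For vehicle against lean the difference was −0.44 (two-sided exact permutation test, p = 0.0368 and 0.0736 after adjustment over 2 arm ratios, where the smallest possible p is 0.00216), which did not pass. The vehicle libraries of this test also took part in the choice of miR-28-5p.

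**Figure D3:**
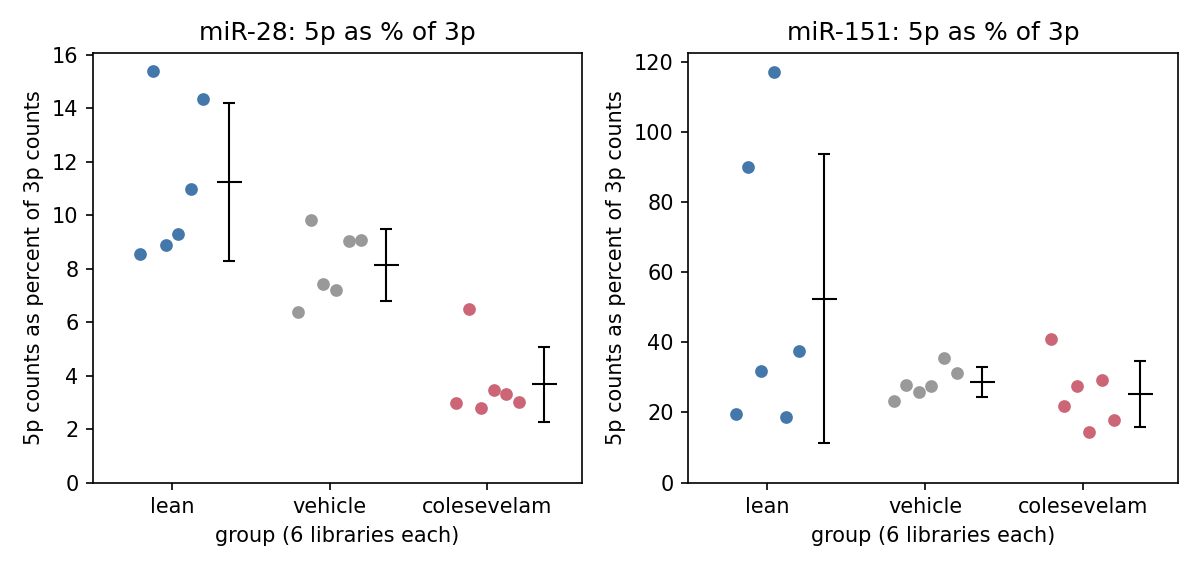
Counts of the 5p arm as a percent of the 3p arm for miR-28 (left) and its sequence relative miR-151 (right), each axis from 0, for each library (points) with the mean ± SD (bar, n = 6). For miR-28 colesevelam libraries lie at 2.80% to 6.50% and vehicle libraries at 6.37% to 9.82%, whereas the groups overlap widely for miR-151.

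miR-151-5p, which belongs to the same family of precursors, carries much of the sequence of miR-28-5p. The sequences below are those of the deposited table, with the 16 bases they share in capitals, because reads trimmed at both ends could be assigned to either.
miR-28-5p: aAGGAGCTCACAGTCTAttgag
miR-151-5p: tcgAGGAGCTCACAGTCTAgt
No other row shared a run of 12 or more bases with miR-28-5p, and none did with miR-191a-5p. How the authors assigned such reads is not stated in the labels, and the counts of both rows are whole numbers. miR-151-5p was at 1439 to 2697 CPM in lean libraries (median 1767), 737 to 2368 CPM in vehicle libraries (median 1846) and 944 to 2538 CPM in colesevelam libraries (median 1890). The levels of miR-151-5p overlapped in all groups, with log2 fold changes of 0.03 ± 0.26 for colesevelam against vehicle (edgeR adjusted p = 0.981), −0.11 ± 0.26 for colesevelam against lean (0.819) and −0.14 ± 0.26 for vehicle against lean (0.851). miR-28-5p came to 24.5% to 37.8% of miR-151-5p in lean, 21.0% to 45.9% in vehicle and 10.4% to 25% in colesevelam libraries.

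miR-151-3p spread widely, at 1525 to 9349 CPM in lean, 2689 to 8495 CPM in vehicle and 3430 to 14852 CPM in colesevelam libraries. Its log2 fold change was 0.40 ± 0.42 for colesevelam against vehicle (edgeR adjusted p = 0.691). The arm ratio of miR-151 differed by −0.52 for vehicle against lean (two-sided exact permutation test, p = 0.331 before and after adjustment over the arm ratios) and by −0.25 for colesevelam against vehicle, not tested. Of the other arm and relatives of miR-28, 3 were tested and 0 were called by edgeR with TMM in any comparison, 0 had an unadjusted p under 0.05, and DESeq2 called 0. Their median log2 fold change for colesevelam against vehicle was 0.35, beside −0.01 over all miRNAs tested. miR-708-5p, which shares the seed, and miR-708-3p were not analysed here.

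**Figure D4:**
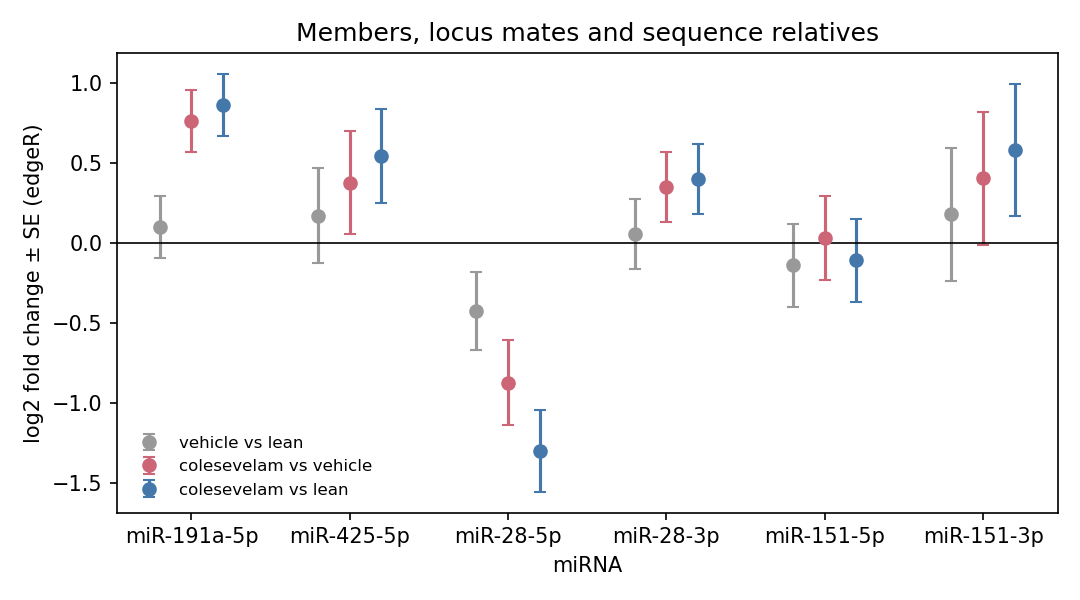
Log2 fold change ± SE from edgeR for the members, miR-425-5p, miR-28-3p and both arms of miR-151 in the 3 comparisons (colours), with a line at 0. miR-28-5p lies below 0 in each comparison, at −0.87 against vehicle with colesevelam, while miR-28-3p lies at 0.35 there. The levels of the members in colesevelam libraries chose them, so their points are a description.

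The miRNAs whose log2 CPM followed each member most closely over the 18 libraries are given with Pearson's r, as a description. The libraries share their scaling and group differences, so r is also given after centring on group means. For miR-191a-5p they were miR-99b-5p (r = 0.88, 0.73 centred), miR-28-3p (0.76, 0.75 centred), miR-183-5p (0.72, 0.02 centred), miR-146b-5p (0.70, 0.14 centred) and miR-99a-5p (0.70, 0.23 centred). The other arm of miR-28 thus followed miR-191a-5p within groups too, whereas its r with miR-28-5p was −0.14 (0.52 centred). The ratio of miR-191a-5p to miR-28-3p was 1.48 to 2.71 in lean, 1.54 to 2.06 in vehicle and 1.62 to 2.69 in colesevelam libraries, overlapping in all groups. miR-425-5p, the neighbour, held rank 38 for miR-191a-5p, with r = 0.25 (−0.03 centred).

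For miR-28-5p the closest were miR-150-5p, known from mature lymphocytes (r = 0.82, 0.75 centred), miR-30d-5p (0.70, 0.47 centred), miR-339-3p (0.69, 0.47 centred), miR-423-5p (0.67, 0.22 centred) and miR-122-3p (0.67, 0.17 centred), the minor arm of the hepatocyte precursor. miR-191a-5p and miR-28-5p had r = −0.54 over the 18 libraries and 0.41 after centring, so the negative sign comes from differences between groups.

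Some leukocyte markers were lower with colesevelam than with vehicle, as miR-28-5p was, and others were not. The 5 leukocyte miRNAs of the list used (miR-142-5p, miR-142-3p, miR-150-5p, miR-223-3p and miR-155-5p) summed to 1585 to 3760 CPM in lean, 1036 to 1543 CPM in vehicle and 766 to 1544 CPM in colesevelam libraries. Of its 2 tested members miR-142-5p fell between lean and vehicle and miR-150-5p between vehicle and colesevelam, and both were lower with colesevelam than in lean (edgeR). miR-150-5p averaged 719 CPM in lean, 725 CPM in vehicle and 305 CPM in colesevelam libraries. miR-142-5p averaged 1493, 611 and 648 CPM there and did not fall from vehicle to colesevelam (log2 fold change 0.09 ± 0.37). miR-142-3p, miR-223-3p and miR-155-5p were at 0 in 8, 6 and 8 of 18 libraries. From vehicle to colesevelam their means went from 13.3 to 1.67, from 11.6 to 16.7 and from 1.96 to 17.5 CPM. The part of leukocyte RNA in the level of miR-28-5p was not tested, and in bulk liver fewer cells of a type and less RNA per cell cannot be told apart.

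The 6 hepatocyte miRNAs summed to 288207 to 483274 CPM in lean, 215427 to 352746 CPM in vehicle and 266327 to 497112 CPM in colesevelam libraries, and miR-122-3p alone was called, lower with colesevelam than in lean. Of the list for biliary and other epithelia miR-200b-3p was tested and was lower than in lean in both obese groups, and the 5 summed to 401 to 654 CPM in lean, 74.8 to 279 CPM in vehicle and 170 to 226 CPM in colesevelam libraries. The erythroid, endothelial and stellate lists had 6 tested members, of which edgeR called 0 in each comparison. In each 1 had an unadjusted p under 0.05, and DESeq2 called 1 for colesevelam against lean and 0 elsewhere. The muscle list had no tested member, and miR-133a-3p summed to 26 counts over all libraries. Whether these shifts bear on the members was not tested.

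Scaling set the direction of miR-191a-5p against lean. The authors' size factors, recovered from their deposited means, do not follow the miRNA totals, and with them the median log2 fold change of the 112 miRNAs was −2.38 between vehicle and lean, −2.76 between colesevelam and lean and −0.36 between colesevelam and vehicle. In the authors' deposited table the log2 fold change against lean was −2.30 with vehicle and −1.90 with colesevelam for miR-191a-5p, and −4.25 with colesevelam for miR-28-5p. Of the rows given in the authors' deposited table for colesevelam against lean, 182 of 182 were below 0. For colesevelam against vehicle the authors' deposited table gives 0.40 for miR-191a-5p and −1.25 for miR-28-5p, opposite in sign as with TMM. Neither passes there, since the adjusted p in the authors' deposited table is 0.658 and 0.0727. The members thus had values on opposite sides of 0 against vehicle under either scaling, called with TMM and not with the authors' factors, whereas against lean miR-191a-5p was below 0 with the authors' factors.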

How the data were processed

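The authors' table holds unscaled estimated counts for 401 mature miRNAs in 18 libraries, of which 297 values in 42 rows are not whole. The tools named in the submitters' processing notes are Bowtie 1.1.2 and DESeq2 1.18.1, while build, annotation and counting are not stated. For each comparison the authors also deposited, per the file headers, mean scaled counts (a signal), log2 fold changes, p-values and a mark of significance (scored 0 or 1). Size factors were solved from those means with miR-184 left out, and gave back all 491 means used to solve them.

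Counts were rounded, filtered (filterByExpr, minimum count 10, minimum total 15), scaled by TMM with factors of 0.814 to 1.19, and fitted in edgeR 4.0.16 under R 4.3.3 (robust quasi-likelihood test, all 18 libraries in one fit, Benjamini-Hochberg over 112 rows, threshold 0.05), after a check on simulated data. Ratios used a pseudocount of 0.5 for arms, and exact permutation tests ran in SciPy 1.17.1. The members and lists were chosen with earlier results of these data known. Named miRNAs were the members, their other arms, locus mates and relatives, 7 marker lists, and the 5 with the highest r to each member over 18 libraries (log2 CPM, prior count 2). Alternatives are in the closing section. No column of values per sample was unmatched. 0 pairs of libraries were identical.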

Additional observations from a re-analysis of the deposited data

Results flagged for a closer look

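In groups of 6, 7 of 36 sets of values held a library far from the other 5 (a gap to the nearest above Dixon's critical share of the range); chance gives about 1 in 20, and sets that share a miRNA are not independent. Lean 6 had 2688 CPM of miR-28-3p, where the other lean libraries had 5411 to 6036, and its log2 ratio of miR-191a-5p to miR-28-3p was 1.44 against at most 0.79. That ratio was 0.70 in colesevelam 1, where the other colesevelam libraries had 1.25 to 1.43. In colesevelam 2 the log2 ratio of miR-28-5p to miR-28-3p was −3.94, where the others had −5.16 to −4.85, and that of miR-28-5p to miR-151-5p was −2, where the others had −3.26 to −2.82. In vehicle 4 the latter was −1.12, where the others had −2.25 to −1.98. In colesevelam 6 the log2 ratio of miR-191a-5p to miR-425-5p was 8.75, against at most 6.73, and rests on 3 counts of miR-425-5p.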

How the results depend on the processing

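Colesevelam against vehicle, the log2 fold change was 0.70 to 0.89 for miR-191a-5p and −0.95 to −0.73 for miR-28-5p when each library was left out in turn, and the ratio of the pair differed by 1.53 to 1.79. Against lean these were 0.73 to 0.96, −1.42 to −1.15 and 1.98 to 2.26. The call of miR-28-5p against vehicle (edgeR adjusted p = 0.0340) was lost with upper-quartile factors (0.0643), the authors' factors (0.413), no filter (0.189), the 50 CPM filter (0.109), summed label numbers (0.0652) and the replicate block (0.0512). It was also lost without any 1 of 7 libraries (0.0603 to 0.103). That of miR-191a-5p (0.0134) was lost with upper-quartile factors (0.0564), the authors' factors (0.856) and no filter (0.0657). Against lean both, chosen on colesevelam levels, were called in all 10 settings (of 17 to 109 calls) and without any 1 of 12 libraries. With the authors' factors miR-191a-5p moved to 0.40 and miR-28-5p to −1.24 against vehicle, and to −1.90 (reversed) and −4.23 against lean. With those factors vehicle against lean gave −2.30 for miR-191a-5p and −2.99 for miR-28-5p, both called (edgeR adjusted p = 0.000150 and 3.65e-05), −2.43 for miR-28-3p, −2.19 for miR-425-5p and −1.93 for miR-151-3p. Colesevelam against lean gave −2.41, −2.24 and −1.92 for these, and colesevelam against vehicle −0.049 for miR-425-5p and −0.39 for miR-151-5p. These factors shift all miRNAs (medians above).

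For vehicle against lean, leaving out a library gave −0.032 to 0.17 for miR-191a-5p (below 0 without vehicle 3), −0.52 to −0.28 for miR-28-5p, −0.081 to 0.13 for miR-28-3p, −0.27 to 0.055 for miR-151-5p and −0.038 to 0.37 for miR-151-3p, with no call. Values of miR-151-5p near 0 changed sign against vehicle with library totals only (−0.12), with only those groups fitted (−0.031) and without a library (−0.083 to 0.18), and against lean with upper-quartile factors (0.016), a filter of 50 CPM (0.036) and without a library (−0.22 to 0.017). miR-425-5p was called for colesevelam against lean without colesevelam 6 (0.75, edgeR adjusted p = 0.0376, 0.30 to 0.75 over libraries) and with the authors' factors (−2.24).

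Calls over all miRNAs were 7 for vehicle against lean (110 with the authors' factors, 5 to 8 without a library), 12 for colesevelam against vehicle (6 with upper-quartile factors, 2 with the authors' factors, 7 without a filter, 7 with libraries of a shared label number summed, 7 with a replicate block, 7 to 12 without a library, 7 being without vehicle 6) and 24 for colesevelam against lean (109 with the authors' factors, 17 to 32 without a library). The cause was not tested. With upper-quartile factors 6 of 6 calls against vehicle were higher, and 7 of 14 with library totals only. The sample numbers did not pair libraries: 6 of 18 same-numbered pairs correlated over 0.1. With the replicate block the members were at 0.08 and −0.40 for vehicle against lean and 0.76 and −0.89 for colesevelam against vehicle, where miR-28-5p was no longer called. DESeq2 gave no adjusted p for miR-425-5p for colesevelam against vehicle. Depth limits miR-28-5p in obese liver.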
